A study of Mus musculus with 20 samples.

Results

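Transcript levels of 9 genes of hepatic insulin signalling are described here: Insr, Irs1, Irs2, Grb14, Ptpn1, Foxo1, Foxo3, Trib1 and Creb3l3. They were taken by symbol from the 46095 gene symbols of the deposited count table. All 9 passed the low-count filter, which left 14440 genes for testing. RNA was sequenced from the livers of 20 mice, 5 in each of 4 groups, to ask what Pck1 does in diet-induced steatohepatitis. Pck1 encodes the cytosolic phosphoenolpyruvate carboxykinase of gluconeogenesis. The groups were wild-type mice (WT) and Pck1-cKO mice (knockout, KO), each on chow or on the NASH diet, and are called wild-type chow, wild-type NASH, knockout chow and knockout NASH. Each diet had lasted 24 weeks, and all mice were 31 to 33 weeks old. Strain, sex, the cells in which Pck1 was deleted, the driver of the deletion, the alleles of the wild-type mice and feeding state at collection are not stated here, since the labels are silent on them. The titles number the mice within each group, so each library was treated as a separate animal. Knockout NASH replicates 1 and 5 were closer to each other than any other pair of replicates, with a chi-square per degree of freedom of 7.81 over 14330 genes against 21.5 or more in the other pairs, and still differed by more than sampling noise.

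In hepatocytes, insulin binds its receptor, a tyrosine kinase, which phosphorylates the adaptors IRS1 and IRS2 and thereby engages PI3-kinase and AKT. AKT phosphorylates FOXO transcription factors and keeps them out of the nucleus, so that genes of gluconeogenesis fall silent after a meal, while insulin also induces lipogenic genes through SREBP-1c. GRB14 and the phosphatase PTP1B (Ptpn1) damp the receptor, TRIB1 is a pseudokinase that directs C/EBPα to degradation, and CREB3L3 (CREBH) is a membrane-bound transcription factor of fasting lipid metabolism.

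The libraries held 9958935 to 20601955 counts. Pck1 averaged 3573 ± 1139 CPM in wild-type chow and 626 ± 175 CPM in knockout chow, and 2290 ± 511 CPM in wild-type NASH and 445 ± 112 CPM in knockout NASH (SD, n = 5 each), with no overlap between the genotypes on either diet. CPM are counts rescaled to equal library sizes after TMM scaling. Of 7 listed hepatocyte symbols 6 were in the table and were detected in every group, at a summed 53097 to 122453 CPM per library, and 7 pancreas markers summed to at most 1.62 CPM. The cholangiocyte markers summed to 531 CPM in wild-type NASH replicate 4 and to 36.8 to 266 CPM in the other 19 libraries. Sex as read from Y-linked counts was unbalanced: females were 0 of 5 mice in wild-type chow, 4 of 5 in wild-type NASH (all but replicate 4), 2 of 5 in knockout chow (replicates 3 and 5) and 1 of 5 in knockout NASH (replicate 2). In 6 libraries long genes had relatively fewer counts (wild-type chow replicates 3, 4 and 5, wild-type NASH replicate 4, knockout chow replicates 4 and 5). Their length slope, that is the slope of a library's log2 deviation on log2 exonic length, was -0.343 to -0.247, against 0.01 to 0.194 in the other 14. Results for the 9 genes are therefore given also from a model with sex and the length slope as terms, and for other named genes where that model ended a call.

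Among the 9 genes, the FOXO factors, Trib1 and Creb3l3 differed between groups, and the receptor, its adaptors and its inhibitors did not pass the test in the model of the 4 groups. In wild-type liver on the NASH diet Foxo1 was 2.59-fold higher than on chow and Creb3l3 was at 0.461 of its chow level. In knockout liver on the NASH diet Foxo1 was at 0.465 of its wild-type level on that diet. Between the diets in knockout liver, Foxo3 was 2.03-fold and Trib1 1.73-fold higher on the NASH diet. Below, the wild-type and knockout diet contrasts set NASH diet against chow within a genotype, and the chow and NASH genotype contrasts set knockout against wild type within a diet. The members named are those called by edgeR's quasi-likelihood test at a Benjamini-Hochberg adjusted p under 0.05 over all genes tested. They came to 2 of 9 in the wild-type diet contrast, where 5.93% of all genes were called, 1 of 9 in the NASH genotype contrast (9.65% of all genes) and 2 of 9 in the knockout diet contrast (3.29%). With so few members, a difference of 1 gene moves these shares by more than the background. In the chow genotype contrast edgeR called 0 of 9, against 5.53% of all genes, with 2 members at an unadjusted p under 0.05 (19.4% of all genes). DESeq2 called 1 there (9.62% of all genes) and limma voom with quality weights 4 (40.4%), a share near that of all genes. Male libraries alone, with 1 wild-type NASH library, gave 0 calls among the 9 in each of the 5 tests, where 0.0314% to 13% of all genes were called. Without the 6 libraries of negative slope 1, 1, 3 and 3 of 9 were called in the wild-type diet, chow genotype, NASH genotype and knockout diet contrasts, against 4.88%, 5.33%, 20.3% and 7.69% of all genes.

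**Figure D1:**
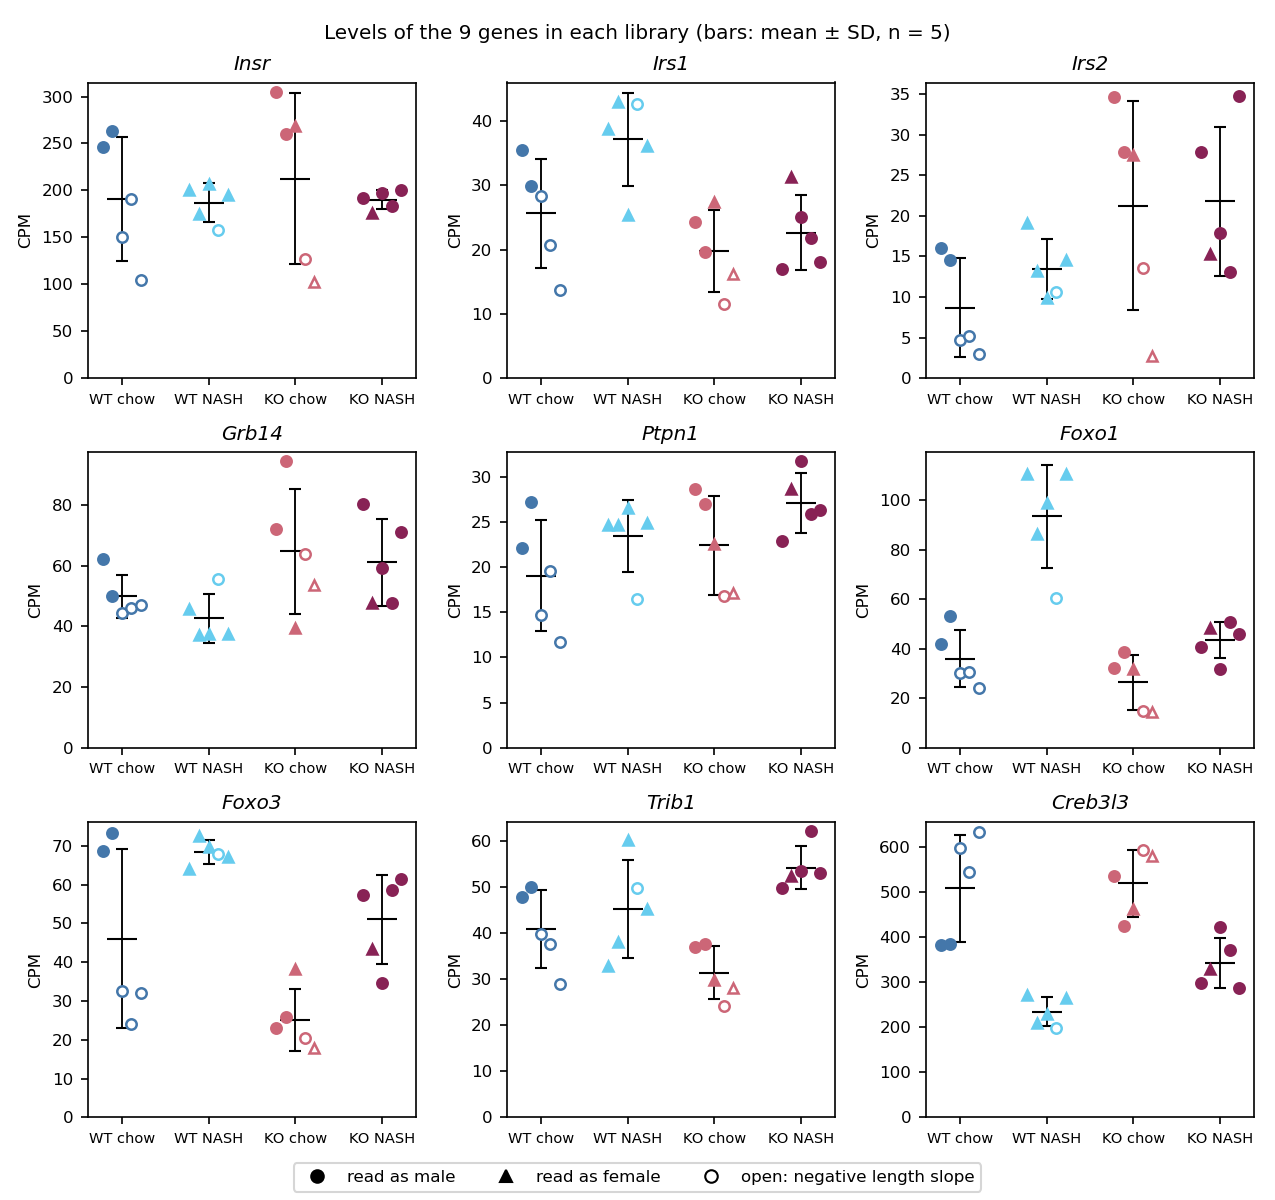
Level of each gene (y axes, CPM, from 0) in the 20 libraries by group (x axes). Circles were read as male and triangles as female, open symbols have a negative length slope, and bars give the mean ± SD of 5 libraries. Foxo1 stands apart in WT NASH (60.6 to 111 CPM), Creb3l3 is lowest there (198 to 271 CPM), and the open symbols lie low within their groups for Insr, Irs2 and Foxo1.

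The model with sex and the length slope as terms called 2 of 9 members in the wild-type diet contrast (5.01% of all genes), 4 of 9 in the chow genotype contrast (13.8%), 2 of 9 in the NASH genotype contrast (10.5%) and 3 of 9 in the knockout diet contrast (9.37%). The 5 calls of the model without these terms were all among them. The 6 added calls were Irs2, Grb14, Foxo1 and Foxo3 in the chow genotype contrast, Creb3l3 in the NASH genotype contrast, and Foxo1 in the knockout diet contrast. Sex alone as a term gave 1, 0, 0 and 1 of 9 in the same order of contrasts (1.11%, 5.84%, 4.33% and 3.98% of all genes). The calls of Creb3l3 and Trib1 stayed, and those of Foxo1 in its 2 contrasts and of Foxo3 were lost. The interaction is the difference between the genotype effects on the 2 diets. It was called for 0 of 9 members by edgeR without the terms (0.139% of all genes) and with both terms (0.478%). In the former, 1 member, Trib1, had an unadjusted p under 0.05, as did 8.25% of all genes (log2 interaction 0.64, SE 0.263, edgeR adjusted p = 0.48). DESeq2 called 0 interactions among the 9 (1.31% of all genes) and limma voom with quality weights 2 (13.5%). An effect of the knockout on one diet and not on the other is therefore not shown to differ between the diets for any of the genes by edgeR.

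**Figure D2:**
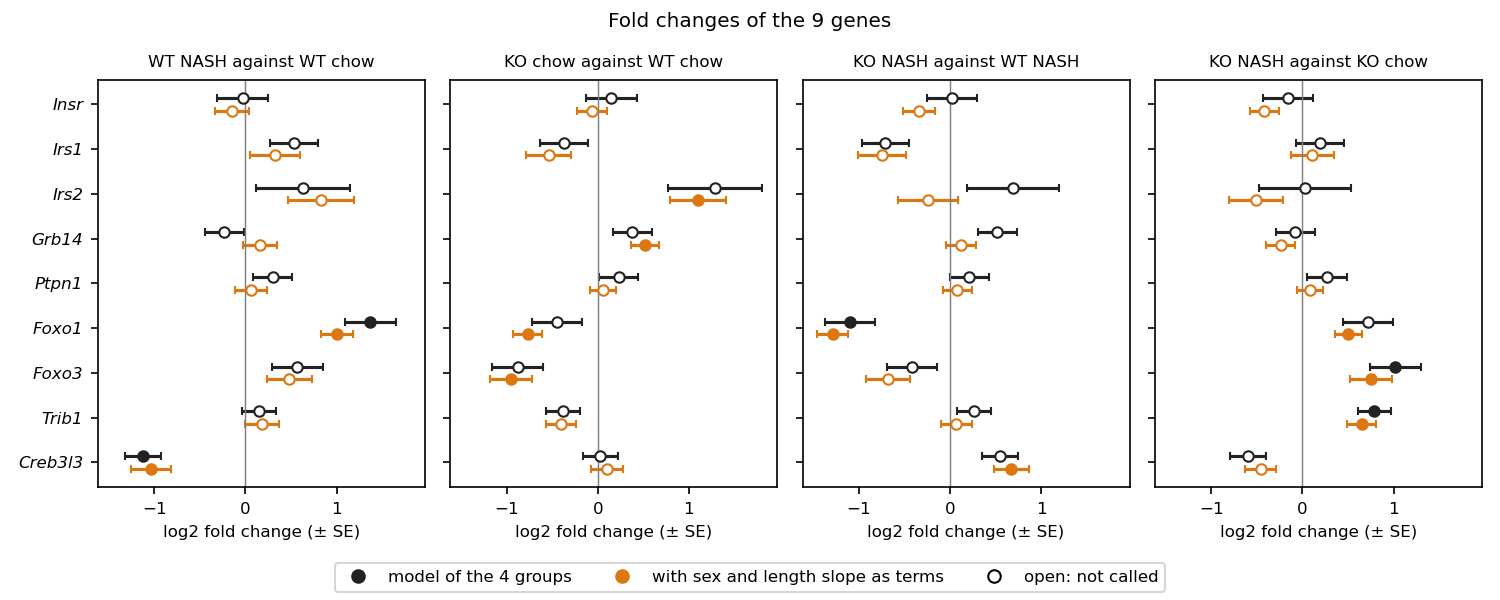
Log2 fold change ± SE (x axes) of the 9 genes (y axis) in the 4 group comparisons, from the model of the 4 groups (black) and the model with sex and length slope as terms (orange). Filled symbols were called at an edgeR adjusted p under 0.05. Foxo1 is filled in both models in the left panel (1.37 and 1.01) and for the NASH genotype contrast (-1.1 and -1.29), and Irs2 moves most between the models on the NASH diet (0.69 and -0.24).

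Insr encodes the insulin receptor and lies on the minus strand of chromosome 8 (chr8:3122061-3279617, GRCm38, GENCODE M21), with 13.75 kb of exons. Its level was 247, 264, 151, 191 and 104 CPM in wild-type chow replicates 1 to 5 and 200.3, 174, 207, 157 and 195 CPM in wild-type NASH. In knockout chow it was 305, 259.6, 268, 127 and 103 CPM and in knockout NASH 192, 176, 198, 184 and 200 CPM. All 4 groups overlapped, and the spread was wide on chow (SD 66.1 CPM in WT and 91.1 CPM in KO) and narrow on the NASH diet (SD 20.6 and 10.1 CPM). None of the 4 comparisons passed the test. The fold change of the NASH genotype contrast was 1.02 (log2 0.02, 95% interval -0.56 to 0.6), and that of the wild-type diet contrast was 0.977 (log2 -0.03, 95% interval -0.61 to 0.55). These intervals do not show equal levels.

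The spread of Insr followed the length slope of the libraries. Across 20 libraries, which share the scaling by which both measures were made, Pearson's r of log2 CPM with the slope was 0.79, and it was 0.89 within groups. The same description gave r = 0.84 for Irs2, 0.88 for Ptpn1, 0.53 for Trib1, 0.51 for Foxo1, 0.47 for Foxo3, 0.28 for Irs1, 0.25 for Grb14 and -0.44 for Creb3l3, the member with the shortest exons (3.02 kb). Within groups r was 0.9 for Foxo1, the highest of the 9, 0.84 for Ptpn1, 0.81 for Irs2, 0.68 for Foxo3, 0.52 for Trib1, 0.45 for Irs1, 0.22 for Grb14 and -0.54 for Creb3l3. Insr averaged 139 CPM in the 6 libraries of negative slope and 219 CPM in the other 14. Irs2 averaged 6.61 and 20.4 CPM, a wider gap on the ratio scale, although its exons (6.32 kb) are shorter than those of Foxo3 (7.57 kb; 32.5 and 54.1 CPM) or Irs1 (9.14 kb; 22.2 and 28.1 CPM). Exon length therefore did not order the members by their relation to the slope.

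**Figure D3:**
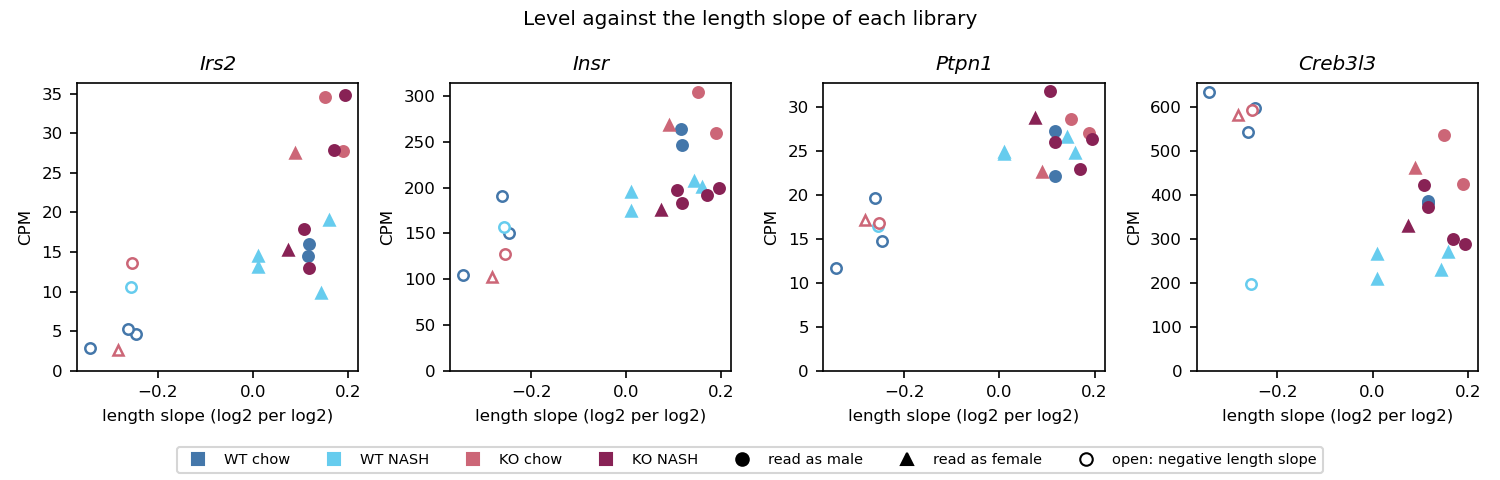
Level (y axes, CPM, from 0) of Irs2, Insr, Ptpn1 and Creb3l3 against the length slope of each library (x axes, change of log2 deviation per unit of log2 exonic length). Colours give the group, triangles the libraries read as female, and open symbols the 6 libraries of negative slope. Ptpn1 is lower in each of these 6 libraries than in the others. Irs2 and Insr tend to be low in them, with overlap. Insr has 191 CPM in WT chow replicate 4 and 174 CPM in WT NASH replicate 2. Irs2 has 13.6 CPM in KO chow replicate 4 and 9.87 CPM in WT NASH replicate 3. Creb3l3 is high in 5 of the 6 and lowest of all in the WT NASH library (198 CPM).

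Grb14 encodes an adaptor that binds the activated receptor and inhibits its kinase (chr2:64912476-65024987, minus strand). It stood at 62, 50.1, 44.3, 46 and 46.9 CPM in wild-type chow and 72.1, 94.4, 39.5, 63.8 and 53.7 CPM in knockout chow. On the NASH diet it was at 45.8, 37.2, 37.4, 55.6 and 37.3 CPM in WT and 80.2, 47.5, 59.1, 47.6 and 71 CPM in KO. Knockout libraries tended to be higher on both diets, with overlap: knockout chow replicate 3 was below all 5 wild-type chow libraries, and wild-type NASH replicate 4, the single male of that group, was above knockout NASH replicates 2 and 4. The fold of the NASH genotype contrast was 1.43 (log2 0.52, SE 0.216, edgeR adjusted p = 0.132), and that of the chow genotype contrast was 1.3 (log2 0.38, SE 0.215, edgeR adjusted p = 0.359). With sex and slope as terms the value on chow was 0.52 and was called (edgeR adjusted p = 0.0318, from 0.0318 to 0.607 among the alternatives), and that on the NASH diet was 0.12. Females alone spanned 37.2 to 45.8 CPM in wild-type NASH (n = 4), and the 1 female of knockout NASH had 47.5 CPM.

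Ptpn1 encodes PTP1B, which dephosphorylates the receptor (chr2:167932057-167979385, plus strand). Its group means were 19.1 ± 6.11, 23.4 ± 3.96, 22.4 ± 5.45 and 27.1 ± 3.31 CPM in wild-type chow, wild-type NASH, knockout chow and knockout NASH (SD, n = 5 each). All 4 groups overlapped and no comparison was called. Log2 fold changes lay between 0.21 and 0.3 in the 4 comparisons, and between 0.06 and 0.08 with sex and slope as terms. The 6 libraries of negative slope had 11.7 to 19.6 CPM, below each of the other 14, which had 22.1 to 31.7 CPM.

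Other genes acting at the receptor were mostly without a call. In the wild-type diet contrast 5.93% of all genes were called, and the median log2 fold change over all genes was 0.01. Of 11 tested receptor partners and adaptors (a list with Igf1r, Shc1 and Gab1, median 0.4), edgeR called 1 there. That gene was Sh2b2, an adaptor of the receptor, at 0.696 ± 0.268 CPM in wild-type chow and 1.92 ± 0.392 CPM in wild-type NASH (log2 1.45, SE 0.352, edgeR adjusted p = 0.0192). It lost the call with sex and slope as terms (log2 1.26, edgeR adjusted p = 0.0972). Of 10 tested inhibitors, 2 were called in the wild-type diet contrast (median 0.33), against 5.93% of all genes. Ptprf, a receptor-type phosphatase, rose from 73.7 ± 31.6 to 192 ± 38.3 CPM in wild type (log2 1.38, SE 0.362, edgeR adjusted p = 0.0287) and from 49.8 ± 31.8 to 137 ± 14.3 CPM in knockout (log2 1.46, SE 0.363, edgeR adjusted p = 0.0353). Enpp1, a membrane glycoprotein that binds the receptor, was at 26.5 ± 7.1 and 47.1 ± 12.4 CPM in wild-type chow and wild-type NASH (log2 0.83, edgeR adjusted p = 0.0498), a call that the terms also ended (log2 0.39, edgeR adjusted p = 0.167).

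Irs1 and Irs2 encode the main adaptors that the hepatic receptor phosphorylates. Irs2 transcription is known to fall after feeding and to rise in fasting, when FOXO is nuclear, whereas Irs1 is the steadier of the pair. Irs1 lies at chr1:82233101-82291416 and Irs2 at chr8:10984681-11008458, both on the minus strand. Irs2 overlaps an antisense gene, 9530052E02Rik, which had 0 to 3 counts per library. Irs1 and Foxo1 each overlap an antisense gene model that is no symbol of the table, and no source used here says whether counting used the strand.

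The promoter windows of Irs1 and Irs2 shared an arrangement of 2 short words, and these stretches are shown because the pair of adaptors is compared below. Windows ran from 250 bases before to 50 bases after the RefSeq start site (GRCm38.p6), and 7 of the 9 members had one. The search covered CACGTG (an E-box, the same on both strands), CAAAACA or TGTTTTG (the insulin response word), GTAAACA or TGTTTAC (FOXO) and TGACGTCA (cAMP response). Capitals mark the E-box and the insulin response word, which overlap in Irs1, and both stretches are written 5′ to 3′ on the minus strand, the strand of the genes (Irs1 at chr1:82291514-82291584, Irs2 at chr8:11008930-11009003).
Irs1: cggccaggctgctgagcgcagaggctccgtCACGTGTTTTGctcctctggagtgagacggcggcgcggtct
Irs2: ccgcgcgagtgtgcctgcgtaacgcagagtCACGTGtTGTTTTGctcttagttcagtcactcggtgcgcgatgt

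The E-box began at position -115 and the insulin response word at -111 from the start site in Irs1, and at -44 and -37 in Irs2. Irs1 held a second copy of TGTTTTG at -32, and 1 of the 2 windows of Creb3l3 held CAAAACA at -148. Over all 32851 windows of the same length, 7.15% held the E-box, 6.28% the insulin response word, 3.65% the FOXO word and 1.79% the cAMP response word. The E-box and the insulin response word began within 20 bases of each other in 19 windows (0.0578%), which belonged to 16 symbols including Irs1, Irs2 and Irs4. This pair was taken from the windows of the members, so its share is a description and no test. The Irs2 window (chr8:11008880-11009179) lies wholly beyond the 5′ end of the GENCODE M21 gene (11008458). Its positions hold for the RefSeq start site only. GTAAACA and TGACGTCA, on either strand, were in none of the 8 windows of the members. These are matches of letters, and binding was not measured.

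Irs1 stood at 35.5, 29.9, 28.4, 20.7 and 13.7 CPM in wild-type chow and 38.7, 43, 25.4, 42.7 and 36.1 CPM in wild-type NASH. In knockout liver it was at 24.3, 19.6, 27.4, 11.5 and 16.2 CPM on chow and 17, 31.2, 25.1, 21.8 and 18.1 CPM on the NASH diet. On the NASH diet 4 of 5 knockout libraries lay below all 5 wild-type libraries, and the female knockout NASH replicate 2 lay above wild-type NASH replicate 3. The fold of the NASH genotype contrast was 0.61 (log2 -0.71, SE 0.262, 95% interval -1.26 to -0.17, edgeR adjusted p = 0.0888), which missed the threshold. DESeq2 called it at an adjusted p of 0.0497, from 0.0154 to 0.998 among the alternatives. With sex and slope as terms it was -0.75 and not called (edgeR adjusted p = 0.0703). The wild-type diet contrast gave 0.53 (SE 0.262, edgeR adjusted p = 0.234), and 0.32 with both terms (edgeR adjusted p = 0.542).

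Irs2 stood at 16, 14.5, 4.68, 5.22 and 2.91 CPM in wild-type chow and 34.6, 27.8, 27.5, 13.6 and 2.67 CPM in knockout chow. On the NASH diet it was at 19.1, 13.2, 9.87, 10.6 and 14.5 CPM in WT and 27.8, 15.3, 17.9, 13 and 34.8 CPM in KO. In each chow group the lowest libraries were those of negative slope, and the lowest values rested on 42 counts in wild-type chow and 44 in knockout chow. Knockout chow replicates 1 to 3 exceeded every wild-type library, while knockout chow replicate 5 was the lowest of all 20 libraries. The fold of the chow genotype contrast was 2.44 (log2 1.29, SE 0.517, 95% interval 0.21 to 2.36, edgeR adjusted p = 0.164). Adding sex and slope as terms, the value was 1.1 and was called (edgeR adjusted p = 0.022, from 0.00191 to 0.349 among the alternatives). Without knockout chow replicate 5 it was 1.6 and was called.

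Per kb of exon, a scale on which genes can be compared, Irs1 was the more abundant adaptor in each of the 10 wild-type libraries, with an Irs2 to Irs1 ratio of 0.238 to 0.702 on chow and 0.359 to 0.713 on the NASH diet. In knockout chow the ratio was 2.06, 2.05, 1.45, 1.71 and 0.239, and in knockout NASH it was 2.37, 0.708, 1.03, 0.866 and 2.78. Irs2 was thus the more abundant adaptor in 4 of 5 knockout chow and 3 of 5 knockout NASH libraries. The exceptions were knockout chow replicate 5, a female library of negative slope, knockout NASH replicate 2, also female, and knockout NASH replicate 4, a male, while the female knockout chow replicate 3 had a ratio of 1.45. The ratio was computed after the values had been seen and was not tested, and its range in knockout NASH reached that of wild-type NASH. Of the 3 knockout NASH libraries with more Irs2, replicates 1 and 5 are the closely alike pair, and replicate 3 had 1.03. In wild-type chow the ratio was 0.238, 0.365 and 0.307 in the libraries of negative slope and 0.652 and 0.702 in the others. Such libraries of knockout chow had 1.71 and 0.239, and knockout NASH had 0 of them. The part of the slope in the ratio was not tested.

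Downstream of the adaptors, the kinase cascade was represented by 14 tested genes, including the PI3-kinase subunits, Akt1, Akt2 and Pdpk1. The list medians were 0.13 in the chow genotype contrast and 0.09 in the NASH genotype contrast. Trib3, a pseudokinase that can bind AKT, was called in the latter, at 8.61 ± 2.77 CPM in wild-type NASH and 28.3 ± 24.9 CPM in knockout NASH (log2 1.72, edgeR adjusted p = 0.0335), but not with sex and slope as terms (log2 0.77, edgeR adjusted p = 0.317). Between the diets edgeR called 0 of the 14 in either genotype (5.93% and 3.29% of all genes in wild type and knockout). At an unadjusted p under 0.05 there were 1 and 3 (22.1% and 22.2% of all genes). DESeq2 also called 0 and 0 (10.4% and 9.02% of all genes), and limma voom with quality weights 6 and 2 (40.6% and 12.7%), shares near those of all genes. The model with sex and slope called 0 in wild type and 3 in knockout (5.01% and 9.37% of all genes). The 3 were Pik3r1, Pdpk1 and Gsk3b, which are named after their values were seen.

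Foxo1 encodes the FOXO factor best known for driving gluconeogenic genes in fasted liver (chr3:52268336-52353221, plus strand). Its level was 41.8, 53.5, 30.2, 30.8 and 24.1 CPM in wild-type chow and 111, 86.6, 99.1, 60.6 and 111 CPM in wild-type NASH. In knockout liver it was 32.1, 38.7, 31.9, 15 and 14.3 CPM on chow and 40.6, 48.6, 32, 50.6 and 46 CPM on the NASH diet. All 5 wild-type NASH libraries lay above all 15 others. The lowest of them, replicate 4, was the male with negative slope. In order of their means the groups were wild-type NASH (93.6 ± 20.9 CPM), knockout NASH (43.6 ± 7.46), wild-type chow (36.1 ± 11.6) and knockout chow (26.4 ± 11.1; SD, n = 5 each). The last 3 overlapped each other.

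Foxo1 rose with the NASH diet in wild type (log2 1.37, SE 0.28, 95% interval 0.79 to 1.96, edgeR adjusted p = 0.00664) and was lower in knockout NASH than in wild-type NASH (log2 -1.1, SE 0.278, 95% interval -1.68 to -0.52, edgeR adjusted p = 0.0176). These comparisons share the wild-type NASH libraries. The 5 red blood cell markers, all 5 detected in every group, summed to 81.4 to 245 CPM in wild-type chow, 25 to 38.6 CPM in the 4 female wild-type NASH libraries, 179 CPM in the male one and 34.4 to 85.6 CPM in knockout NASH. Their part in the levels of Foxo1 and Creb3l3 was not tested. In bulk liver, a change in the RNA per cell and a change in the share of cells that hold it cannot be told apart. Both comparisons also differ in sex. With sex alone as a term both values kept their direction (1.27 and -1.02) and lost the call, at edgeR adjusted p = 0.104 and 0.0854. In males alone, with 1 wild-type NASH library, the values were 0.72 and -0.49 (edgeR adjusted p = 0.497 for both), where the medians over all genes were -0.09 and 0.19. In the model with both terms they were 1.01 and -1.29, both called (edgeR adjusted p = 0.00263 and 8.35e-05). Adjusted p among the alternatives ran from 2.12e-05 to 0.497 and 7.34e-06 to 0.622. Leaving out any 1 library kept the first call, and the second was lost without knockout NASH replicate 3 (edgeR adjusted p = 0.0516).

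Libraries of like sex and slope can be set side by side for Foxo1. Among males of negative slope, wild-type chow had 24.1 to 30.8 CPM (n = 3), knockout chow 15 CPM (n = 1) and wild-type NASH 60.6 CPM (n = 1). Among females of the other slope class, wild-type NASH had 86.6 to 111 CPM (n = 4), knockout NASH 48.6 CPM (n = 1) and knockout chow 31.9 CPM (n = 1). Among males of that class, wild-type chow had 41.8 and 53.5 CPM, knockout chow 32.1 and 38.7 CPM, and knockout NASH 32 to 50.6 CPM (n = 4). Wild-type NASH was the highest group in both classes in which it was present. With 1 library in a cell of this layout there is no test within it.

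Between the diets in knockout liver Foxo1 had a fold of 1.65 (log2 0.72, SE 0.276, edgeR adjusted p = 0.138), and on chow knockout against wild type it had a fold of 0.732 (log2 -0.45, SE 0.276, edgeR adjusted p = 0.395). In the model with sex and slope both were called, at 0.5 (edgeR adjusted p = 0.0399, from 0.0399 to 0.582 among the alternatives) and -0.77 (edgeR adjusted p = 0.00268, from 0.00268 to 0.981 among the alternatives). The interaction for Foxo1 was -0.65 (SE 0.389, edgeR adjusted p = 0.723).

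Foxo3, a second FOXO factor with broad roles in stress responses and autophagy, lies at chr10:42181841-42276755 on the minus strand. It was at 68.5, 73.3, 32.4, 24.1 and 32 CPM in wild-type chow and 64.1, 72.4, 69.7, 68 and 67.2 CPM in wild-type NASH. In knockout liver it was at 22.9, 26, 38.3, 20.5 and 18 CPM on chow and 57.3, 43.3, 34.6, 58.5 and 61.4 CPM on the NASH diet. Wild-type chow was split, with the libraries of negative slope at 24.1 to 32.4 CPM and the other pair at 68.5 and 73.3 CPM. Wild-type NASH was narrow at 68.3 ± 3.09 CPM and did not overlap knockout NASH (51 ± 11.5 CPM).

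Foxo3 rose with the NASH diet in knockout liver (log2 1.02, SE 0.279, edgeR adjusted p = 0.0484). Knockout NASH replicate 3 (34.6 CPM) lay below knockout chow replicate 3 (38.3 CPM), and the other 4 knockout NASH libraries lay above all knockout chow libraries. This call was lost in 13 of the 20 fits that left out 1 library, with edgeR adjusted p up to 0.118 and log2 values of 0.9 to 1.22. With the closely alike knockout NASH replicates 1 and 5 summed into 1 library it was 0.96 and not called (edgeR adjusted p = 0.0974). Sex alone as a term also ended the call, while with sex and slope it was kept (log2 0.75, edgeR adjusted p = 0.0429). In the same contrast the 7 macrophage markers, all 7 detected, summed to 433 to 1150.4 CPM in knockout chow and 307 to 414 CPM in knockout NASH, and the red blood cell markers to 89.5 to 182 and 34.4 to 85.6 CPM, without overlap. Their part in the levels of Foxo3 and Trib1 was not tested. On chow, Foxo3 in knockout was at 0.545 of wild type (log2 -0.88, SE 0.279, edgeR adjusted p = 0.0721). Under the model with sex and slope that value was -0.95 and was called (edgeR adjusted p = 0.0081, from 0.00502 to 0.241 among the alternatives), and without the 6 libraries of negative slope it was -1.28. In males alone of the other slope class, knockout chow had 22.9 and 26 CPM and wild-type chow 68.5 and 73.3 CPM. On the NASH diet the fold of knockout against wild type was 0.747 (log2 -0.42, SE 0.276, edgeR adjusted p = 0.359). Between the diets in wild type Foxo3 had a log2 value of 0.57 (SE 0.277, edgeR adjusted p = 0.235). Its interaction was 0.46 (SE 0.391, edgeR adjusted p = 0.848), so the diet effect is not shown to differ between the genotypes.

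Foxo1 and Foxo3 varied together over the 20 libraries (Pearson's r of log2 CPM 0.84, and 0.8 with sex and slope removed), and both varied against Creb3l3 (r = -0.85 and -0.84, and -0.78 and -0.8 with sex and slope removed). Within groups the 3 values were 0.63, -0.5 and -0.78. These are descriptions of libraries that fall into 4 groups and share the scaling. By contrast, r between Insr and Irs2 was 0.77 before and 0.27 after sex and slope were removed, and that between Insr and Ptpn1 was 0.74 and 0.21. Per kb of exon the Foxo1 to Foxo3 ratio was 0.751 ± 0.227 in wild-type chow, 1.2 ± 0.298 in wild-type NASH, 0.918 ± 0.318 in knockout chow and 0.764 ± 0.143 in knockout NASH (SD, n = 5 each). Foxo1 was the more abundant of the pair in 4 of 5 wild-type NASH and 0 of 5 knockout NASH libraries. On chow it was so in wild-type replicate 4 (1.11) and in knockout replicates 1 and 2 (1.23 and 1.3). The exception in wild-type NASH was replicate 4 (0.779), its single male and its single library of negative slope. That value lay within the knockout NASH range of 0.619 to 0.981. The ratio, and the part of sex and slope in it, were not tested.

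**Figure D4:**
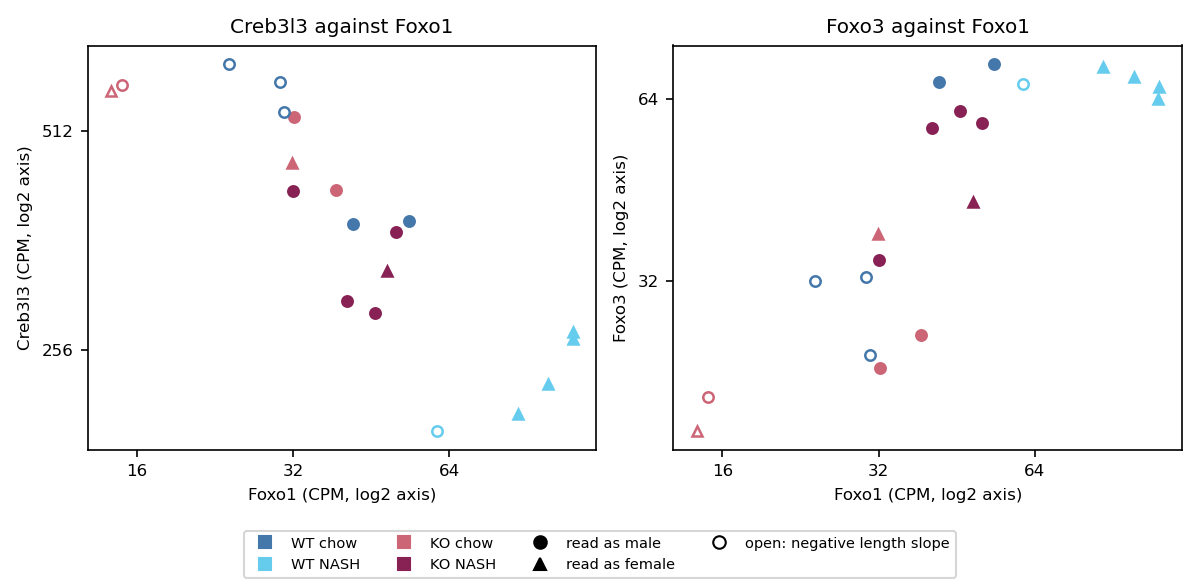
Creb3l3 (left) and Foxo3 (right) against Foxo1 in each of the 20 libraries, all in CPM on log2 axes. Colours give the group, triangles the libraries read as female, and open symbols the libraries of negative length slope. Creb3l3 is lower where Foxo1 is higher (r = -0.85) and Foxo3 is higher (r = 0.84), and the WT NASH libraries hold the 5 highest Foxo1 values (60.6 to 111 CPM).

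Among the genes with at least 5 CPM on average (9093 candidates), those whose log2 CPM most resembled Foxo1 over the 20 libraries were Epas1 (r = 0.97), Rnf169 (0.95) and Arid5b (0.94). For Foxo3 they were Syne1 (0.95), Zbtb16 (0.92) and Mast3 (0.91), and for Creb3l3 Ephx2, Cmas and Acot1 (0.94 each). Trib1 had weaker neighbours, Tns2 (0.83), Ppp2r5e (0.82) and Arhgap32 (0.81). For the receptor and adaptors the nearest were Lrp6 (0.94), March6 (0.93) and Slc35e1 (0.93) for Insr, Hapln4 (0.91), Mfsd6 (0.89) and Nfib (0.88) for Irs1, and Plbd2 (0.94) and Rnf26 (0.92) among those for Irs2. The nearest to Grb14 were Fnbp1l (0.87), Pik3c2a (0.84) and Ctps2 (0.84), and to Ptpn1 Kdm5c, Mtmr3 and Ywhag (0.93 each). Once sex and slope were removed, r with the first neighbour stayed at 0.94 for Foxo1, 0.97 for Foxo3 and 0.95 for Creb3l3, and was 0.63 for Ptpn1. Within groups the order differed, with r of 0.93 for Foxo1, 0.95 for Foxo3, 0.7 for Creb3l3 and 0.9 for Ptpn1.

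Other forkhead factors and FOXO cofactors (11 tested, among them Foxo4, Foxa2, Ppargc1a and Sirt1) gave 0 edgeR calls in each of the 5 tests. At an unadjusted p under 0.05 there were 4 in the wild-type diet contrast (22.1% of all genes), 2 in the NASH genotype contrast (25.6%), 2 in the knockout diet contrast (22.2%) and 0 in the chow genotype contrast (19.4%) and in the interaction (8.25%). DESeq2 called 1, 0, 1, 0 and 0 in that order (10.4%, 15.2%, 9.02%, 9.62% and 1.31% of all genes), and limma voom with quality weights 8, 1, 2, 3 and 1 (40.6%, 23.8%, 12.7%, 40.4% and 13.5%). With sex and slope as terms 2, 0, 2, 3 and 0 were called (5.01%, 10.5%, 9.37%, 13.8% and 0.478%). Named after their values were seen, these were Foxk1 and Foxk2, then Foxo4 and Hnf4a, then Foxa2, Ywhaz and Hnf4a.

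Over all genes 5.93% were called in the wild-type diet contrast, with a median log2 fold change of 0.01. Of 18 tested genes known as FOXO targets (median 0.13), 3 rose with the NASH diet in wild type, where Foxo1 was highest. They were Cdkn1a, an inhibitor of the cell cycle (2.03 ± 1.09 to 30.1 ± 18.9 CPM, log2 3.92, edgeR adjusted p = 0.00111), Cited2, a transcriptional coregulator (6.52 ± 2.6 to 18.4 ± 3.5 CPM, log2 1.49, edgeR adjusted p = 0.00664), and Ccng2, a cyclin of growth arrest (13.7 ± 4.12 to 28.3 ± 5.95 CPM, log2 1.04, edgeR adjusted p = 0.00729). Cited2 fell in the NASH genotype contrast (log2 -1, edgeR adjusted p = 0.0378), as Foxo1 did, and Ccng2 had a value of -0.46 there without a call. G6pc, the last enzyme of gluconeogenesis, chosen after its values were seen, was at 416 ± 129, 344 ± 54.9, 513 ± 292 and 289 ± 30.3 CPM in wild-type chow, wild-type NASH, knockout chow and knockout NASH, with no call in any comparison.

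In knockout liver on chow, where Foxo1 and Foxo3 were lowest, 4 of the 18 targets were called, 3 higher and 1 lower (median 0.29). Of all genes 5.53% were called in that chow genotype contrast. Pdk4, the kinase that inhibits pyruvate dehydrogenase in fasting, was at 13.1 ± 4.99 CPM in wild-type chow and 177 ± 187 CPM in knockout chow (log2 3.76, SE 0.7, edgeR adjusted p = 0.004). Klf15, a fasting factor of amino acid catabolism, fell from 204 ± 22.1 to 119 ± 19.7 CPM (log2 -0.77, SE 0.194, edgeR adjusted p = 0.0244). In the NASH genotype contrast 2 targets were higher and 1 lower (median -0.17), against 9.65% of all genes called. In the knockout diet contrast 1 was higher and 1 lower (median -0.04), against 3.29% of all genes. Cdkn1a was the higher one in the knockout diet contrast (4.4 ± 4.04 to 20.9 ± 11.8 CPM, log2 2.23, edgeR adjusted p = 0.0404). Targets were called in both directions in 3 of the 4 comparisons. In the model with sex and slope 3, 7, 3 and 5 targets were called in the wild-type diet contrast, the chow genotype contrast, the NASH genotype contrast and the knockout diet contrast (5.01%, 13.8%, 10.5% and 9.37% of all genes), and in males alone 0, 4, 2 and 0 (0.596%, 6.23%, 13% and 0.37%).

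Insulin-induced lipogenic genes (12 tested) showed larger changes. In wild type 7 rose on the NASH diet and none fell, with a median log2 fold change of 1.64 against 0.01 over all genes. In the NASH genotype contrast 9 fell and none rose, with a median of -1.26 against 0. Of all genes 5.93% and 9.65% were called in these 2 comparisons. Srebf1, which encodes SREBP-1, went from 19 ± 3.4 CPM in wild-type chow to 117 ± 40.6 in wild-type NASH (log2 2.61, SE 0.31, edgeR adjusted p = 7.41e-05) and was at 59.5 ± 14.9 CPM in knockout NASH (log2 -0.97 against wild-type NASH, SE 0.294, edgeR adjusted p = 0.0417). Fasn, the fatty acid synthase, was at 28.1 ± 17.7, 289 ± 122 and 45 ± 19.9 CPM in the same groups, and Acly, which makes cytosolic acetyl-CoA, at 56.4 ± 14, 188 ± 23.5 and 81.9 ± 6.88 CPM. Acly was the 1 member of this list with a called interaction (log2 -1.39, SE 0.276, edgeR adjusted p = 0.0451).

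Elovl6, an elongase of fatty acids, followed another pattern, at 56.9 ± 11.2, 50.2 ± 14.3, 88 ± 39.5 and 20.5 ± 7.03 CPM in wild-type chow, wild-type NASH, knockout chow and knockout NASH, and was lower in knockout NASH than in wild-type NASH and in knockout chow (log2 -1.29 and -2.1, edgeR adjusted p = 0.00974 and 0.00191). In the chow genotype contrast 3 lipogenic genes were lower and none higher (median -0.18), against 5.53% of all genes called. In the knockout diet contrast 1 was higher and 1 lower (median 0.24), against 3.29% of all genes. With sex and slope as terms 5 were higher in the wild-type diet contrast and 7 lower in the NASH genotype contrast (5.01% and 10.5% of all genes). Males alone, with 1 wild-type NASH library, gave 0 in both (0.596% and 13% of all genes), with medians of 0.57 and -0.52. Without the 6 libraries of negative slope they were 6 higher and 10 lower (4.88% and 20.3% of all genes called in either direction).

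**Figure D5:**
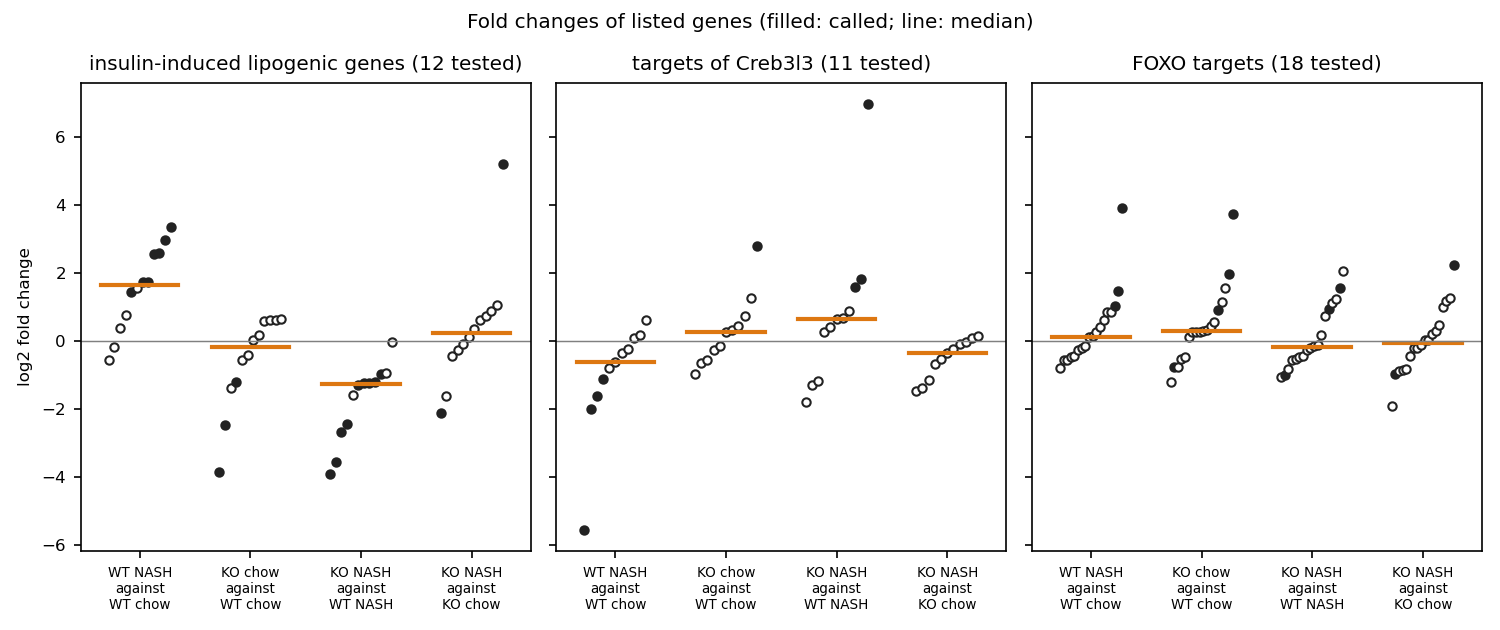
Log2 fold changes (y axis) of the tested genes of 3 lists in the 4 comparisons (x axes), each point 1 gene, ordered by value within a comparison, filled where called by edgeR and with the median as a line. Lipogenic medians are 1.64 in the wild-type diet contrast and -1.26 in the NASH genotype contrast, and those of the FOXO targets lie between -0.17 and 0.29.

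Trib1 lies at chr15:59648350-59657099 on the plus strand and has been linked to plasma lipids and hepatic lipogenesis. It was at 47.8, 50.2, 39.8, 37.7 and 29 CPM in wild-type chow and 32.9, 38.1, 60.4, 49.9 and 45.2 CPM in wild-type NASH. In knockout liver it was at 37, 37.6, 29.9, 24.3 and 28.2 CPM on chow and 49.8, 52.5, 53.6, 62.3 and 53.1 CPM on the NASH diet. All 5 knockout NASH libraries lay above all 5 knockout chow libraries, while the wild-type groups overlapped. The rise with the NASH diet in knockout was 1.73-fold (log2 0.79, SE 0.186, 95% interval 0.4 to 1.18, edgeR adjusted p = 0.029). It was 0.65 with sex and slope as terms (edgeR adjusted p = 0.015, from 0.00194 to 0.582 among the alternatives). The call was lost without any of knockout chow replicates 4 and 5 and knockout NASH replicates 2, 3, 4 and 5, at edgeR adjusted p up to 0.0726. In wild type the fold was 1.11 (log2 0.15, 95% interval -0.24 to 0.53).

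Among 8 tested partners and effectors of Trib1, Det1, a component of the ubiquitin ligase with COP1, was at 7.49 ± 1.88, 5.62 ± 0.566, 29.4 ± 15.9 and 11.5 ± 1.78 CPM in wild-type chow, wild-type NASH, knockout chow and knockout NASH. It was higher in knockout on chow (log2 1.97, SE 0.263, edgeR adjusted p = 0.000306) and on the NASH diet (log2 1.03, SE 0.26, edgeR adjusted p = 0.0176), and it fell between the diets in knockout (log2 -1.35, edgeR adjusted p = 0.0101), opposite to Trib1. Mlxipl, which encodes the glucose-sensing factor ChREBP and is also in the lipogenic list, fell in knockout on both diets (log2 -1.19 and -1.23, edgeR adjusted p = 0.0367 and 0.0231), the second not with sex and slope as terms (log2 -0.87, edgeR adjusted p = 0.0921). The list median was 0.2 in the wild-type diet contrast. There edgeR and DESeq2 called 0 (5.93% and 10.4% of all genes) and limma voom 1 (40.6%), with 1 at an unadjusted p under 0.05 (22.1%). In the chow genotype contrast the median was -0.11 (1 higher, 1 lower, against 5.53% of all genes called). It was -0.02 in the NASH genotype contrast (2 higher, 1 lower, against 9.65%) and 0.29 in the knockout diet contrast (1 lower, against 3.29%).

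Creb3l3 lies at chr10:81084324-81098874 on the minus strand and was the most abundant member per kb of exon in each group (77.7 to 172 mean CPM per kb). It was at 381, 386, 598, 543 and 634 CPM in wild-type chow and 271, 209, 229.8, 198 and 265 CPM in wild-type NASH. In knockout liver it was at 536, 424, 462, 594 and 581 CPM on chow and 299, 329, 423, 372 and 288 CPM on the NASH diet. No NASH library of a genotype reached the lowest chow library of that genotype, and on the NASH diet no wild-type library reached the lowest knockout library. The order of the means was knockout chow (519 ± 74 CPM), wild-type chow (508 ± 119), knockout NASH (342 ± 55.9) and wild-type NASH (234 ± 32.7; SD, n = 5 each), and the chow groups overlapped.

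Creb3l3 fell with the NASH diet in wild type (log2 -1.12, SE 0.197, 95% interval -1.53 to -0.71, edgeR adjusted p = 0.00217), also without any 1 library. Without the 6 libraries of negative slope, which hold the 3 highest wild-type chow values, it was -0.64 and not called (edgeR adjusted p = 0.0565), and in males alone -1.39 (edgeR adjusted p = 0.176). Adjusted p among the alternatives ran from 1.65e-07 to 0.176. In knockout the value was -0.6 (SE 0.195, edgeR adjusted p = 0.0888), and knockout against wild type on the NASH diet gave 0.55 (SE 0.195, edgeR adjusted p = 0.081). In the model with both terms the latter was 0.67 and was called (edgeR adjusted p = 0.0305, from 0.00801 to 0.895 among the alternatives). Neither difference on chow (log2 0.03, 95% interval -0.37 to 0.44) nor the interaction (0.51, SE 0.275, edgeR adjusted p = 0.679) was called.

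Genes known as targets of CREB3L3 (11 tested) followed its direction in part. In the wild-type diet contrast, where 5.93% of all genes were called, 4 fell and none rose (median -0.62, against 0.01 over all genes). Apoa4, an apolipoprotein of triglyceride-rich particles, fell from 2672 ± 937 to 667 ± 429.6 CPM (log2 -2, SE 0.427, edgeR adjusted p = 0.00909), Apoa5, an activator of plasma lipolysis, from 2574 ± 1035 to 849 ± 168 CPM (log2 -1.6, SE 0.295, edgeR adjusted p = 0.00319), and Apoc2, the cofactor of lipoprotein lipase, from 10.8 ± 3.43 to 4.97 ± 1.52 CPM (log2 -1.11, edgeR adjusted p = 0.0154). In the NASH genotype contrast, where 9.65% of all genes were called, 3 rose and none fell (median 0.65, against 0). Apoa4 was at 2001 ± 1145 CPM in knockout NASH (log2 1.59, edgeR adjusted p = 0.0234), and Fgf21, a fasting hormone of liver, at 3.24 ± 1.93 CPM in wild-type NASH and 11.8 ± 7.06 CPM in knockout NASH (log2 1.82, edgeR adjusted p = 0.0423).

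Cidec, which coats lipid droplets, had the widest range of these targets, at 42.2 ± 26.7, 0.886 ± 0.434, 295 ± 137 and 115 ± 25.5 CPM in wild-type chow, wild-type NASH, knockout chow and knockout NASH. It was called in both knockout comparisons (log2 2.81 on chow and 6.99 on the NASH diet, edgeR adjusted p = 0.00153 and 4.73e-07) and in the interaction (log2 4.18, SE 0.658, edgeR adjusted p = 0.0111; 3.2 and 0.0537 with sex and slope as terms), while Creb3l3 was at 508 and 519 CPM in the chow groups. Cidec is also an adipocyte gene. The 6 listed adipose markers summed to 9.05 to 19.3 CPM in wild-type chow, 6.77 to 11.5 in wild-type NASH, 16.9 to 60.5 in knockout chow and 30.9 to 86.3 in knockout NASH. Lep was at 0 counts in all 20 libraries and Adipoq at 0 to 9, while Cfd had 0 to 1135 and Lipe 44 to 1234 counts per library. The sum was thus higher in knockout NASH than in wild-type NASH without overlap, and the part of adipose cells in the level of Cidec was not tested. In the chow genotype contrast 1 target was higher (median 0.27), where 5.53% of all genes were called. In the knockout diet contrast edgeR called 0 of 11 (3.29% of all genes, list median -0.36), with 3 at an unadjusted p under 0.05 (22.2%). DESeq2 called 2 there (9.02%) and limma voom 1 (12.7%). With sex and slope as terms 3 targets, Apoa5, Cidec and Cpt1a, were lower in the wild-type diet contrast and 6 higher in the NASH genotype contrast (5.01% and 10.5% of all genes). Apoa4 and Apoc2 lost their calls in the former (log2 -1.98 and -0.9, edgeR adjusted p = 0.0518 and 0.117). Without the 6 libraries of negative slope 3 were lower and 1, Apcs, higher there (4.88% of all genes called), with a median of -0.23.

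Of 9 tested relatives and processing factors of CREB3L3, Creb3l2 rose (15.2 ± 7.21 to 43.8 ± 8.09 CPM, log2 1.53, SE 0.327, edgeR adjusted p = 0.00909) and Creb3 fell (46.3 ± 19.9 to 20.3 ± 2.12 CPM, log2 -1.19, SE 0.263, edgeR adjusted p = 0.0109) in the wild-type diet contrast. The list median there was 0.21, and 5.93% of all genes were called. Over 12 genes of the fasting response the medians were -0.66 in that comparison (1 lower), 0.42 in the chow genotype contrast (1 higher, 1 lower) and 1 in the NASH genotype contrast (2 higher). Of all genes 5.93%, 5.53% and 9.65% were called there. This list shares genes with those above. Its chow calls, Pdk4 and Klf15, were also counted as FOXO targets, and Fgf21, called in the NASH genotype contrast, as a target of CREB3L3. Cyp4a14, a PPARα-driven fatty acid hydroxylase, was the one that fell in wild type, from 9119 ± 4729 to 824 ± 701 CPM (log2 -3.47, edgeR adjusted p = 0.0111), and was at 5201 ± 2599 CPM in knockout NASH (log2 2.66, edgeR adjusted p = 0.0294). With sex and slope as terms its change in wild type was -4.2 and not called (edgeR adjusted p = 0.0614). The 1 gene of the list called there was Cpt1a, the carnitine palmitoyltransferase of liver, against 5.01% of all genes.

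Clock genes, which set the daily rhythm of the liver, were also called in the 2 comparisons in which Foxo1 was. Of 15 tested, 4 were called in the wild-type diet contrast (3 higher, 1 lower) and 4 in the NASH genotype contrast (3 higher, 1 lower). The shares of all genes were 5.93% and 9.65%. With sex and slope as terms 6 (2 higher, 4 lower) and 9 (5 higher, 4 lower) were called, against 5.01% and 10.5% of all genes. Arntl, which encodes BMAL1, was at 2.91 ± 1.34 CPM in wild-type chow, 19.7 ± 7.21 in wild-type NASH, 3.39 ± 0.908 in knockout chow and 7.32 ± 2.64 in knockout NASH, with log2 2.74 (SE 0.337, edgeR adjusted p = 9.4e-05) for the diet in wild type and -1.42 (SE 0.316, edgeR adjusted p = 0.0088) for the knockout on the NASH diet. Bhlhe41, a clock repressor, was at 8.17 ± 2.65, 0.838 ± 0.386, 3.53 ± 2.4 and 3.67 ± 1.68 CPM in the same order, and its interaction was called (log2 3.38, SE 0.656, edgeR adjusted p = 0.0423). The time of collection is not given in the sources used here, and the part of clock phase and feeding in the levels of the 9 genes was not tested.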

How the data were processed

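Liver RNA of 20 mice was measured. The table that the authors deposited holds unnormalized whole-number counts for each symbol, with a different total per library. Reads were aligned with HISAT2 2.0.4 and the build was GRCm38, per the submitters' processing notes. No source used here gives the counting program, the annotation or the use of strand. The file headers call the NASH diet HFD, and columns were matched by genotype, diet and number. Counts were tested in R 4.3.3 with edgeR 4.0.16 (filterByExpr, minimum count 10; TMM; quasi-likelihood F test; 1 coefficient per group, 20 libraries; Benjamini-Hochberg over 14440 genes; called under 0.05). SEs came from the fold change and F statistic. Sex was male at 100 or more counts over 4 Y-linked genes. Length slopes used 9518 genes and exonic lengths of GENCODE M21, which 93.5% of tested genes had. The procedure was tested on simulated data.

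The 9 genes, the 11 gene lists, the marker lists and the alternatives were chosen with earlier results of these data known. All 9 members are described. From each list, the text names at most the 4 genes of smallest p among those called in at least 1 test with a mean of at least 1 CPM. Likeness was taken among genes of at least 5 CPM, passing over members and predicted genes. Lists are given by counts and medians, with no set test, and a few genes that the rules would name are not reported here. The alternatives were RLE size factors, TMM without the 20 most abundant genes, no filter, a filter of 5 CPM, DESeq2 1.42.0, limma 3.58.1 voom with quality weights, a block for the replicate number, a fit of only the groups compared, sex and length slope as terms alone and together, a length offset, each sex alone, no libraries of negative slope, knockout NASH replicates 1 and 5 summed, a log2 fold change of at least 1, and each library left out. Sex with the length offset, and the list counts under other settings, were chosen after seeing the data. The table has no molecular identifiers, and the part of depth (9958935 to 20601955 counts) in the levels was not tested.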

Additional observations from a re-analysis of the deposited data

Results flagged for a closer look

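Ptpn1 in wild-type NASH replicate 4 stood apart from its group. It was at 16.5 CPM, against 24.6 to 26.5 CPM in the other 4 wild-type NASH libraries. The gap exceeded Dixon's 95% limit for 5 samples, and it was the only one to do so among the 36 sets of 5 libraries (9 genes in 4 groups), where chance gives about 1 in 20. This library was also the single male and the single one with a negative length slope in its group, and it had the fewest counts of all 20 (9958935). Ptpn1 had 112 counts in it. The part of sex, slope and depth in this value cannot be told apart within wild-type NASH.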

How the results depend on the processing

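Calls among the 9 genes are given in the order wild-type diet contrast, chow genotype contrast, NASH genotype contrast, knockout diet contrast and interaction, where the reported counts were 2, 0, 1, 2 and 0. RLE size factors, scaling without the 20 most abundant genes and a 5 CPM filter gave the same counts. No filter gave 2, 0, 1, 0 and 0, DESeq2 2, 1, 3, 3 and 0, limma voom with quality weights 5, 4, 4, 3 and 2, only the groups compared 2, 0, 3 and 2, sex as a term 1, 0, 0, 1 and 0, the slope 2, 2, 4, 2 and 0, both 2, 4, 2, 3 and 0, the length offset 2, 1, 3, 2 and 0, sex with that offset 2, 1, 1, 2 and 0, males 0 in each, females 0 and 0 in the comparisons of knockout NASH, and the libraries without negative slope 1, 1, 3, 3 and 0. Summing knockout NASH replicates 1 and 5, or a log2 fold change of at least 1, gave 2, 0, 1, 1 and 0. Over all genes the shares called in the same order were 40.6%, 40.4%, 23.8%, 12.7% and 13.5% by voom, 10.4%, 9.62%, 15.2%, 9.02% and 1.31% by DESeq2, 12.3%, 11.5%, 16.5%, 6.36% and 1.32% with the slope, and 1.11%, 5.84%, 4.33%, 3.98% and 0.0277% with sex, and from 0% to 20.3% with the other settings. Leaving out 1 library gave 2 to 2, 0 to 1, 0 to 1, 0 to 2 and 0 to 0. The calls of Foxo1 and Creb3l3 between the diets in wild type were kept in 20 of 20 such fits. Females alone allowed no comparison with wild-type chow.

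Blocking on the replicate number, the counts were 2, 0, 1, 1 and 0, the call of Foxo3 in the knockout diet contrast being lost (log2 1.05, edgeR adjusted p = 0.0532). Numbers do not pair the mice by the labels: 13 of 30 same-number pairs of libraries had deviations correlated over 0.1 (-0.41 to 0.52), and in 17 of 60 cases a library correlated best with its own number.

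Values that changed sign were all without a call in the model of the 4 groups, and the cause was not tested. By voom they were -0.18 (Creb3l3, the chow genotype contrast), 0.01 (Foxo1, there), -0.04 (Foxo3, interaction), -0.01 and 0.27 (Insr, the NASH genotype contrast, and the wild-type diet contrast) and -0.39 (Irs2, the knockout diet contrast). For Grb14 the interaction was -0.39, -0.4, -0.39 and -0.37 with sex, sex and slope, males, and sex with the offset, and the wild-type diet value 0.22, 0.16, 0.13 and 0.09, with 0.05 for females in the knockout diet contrast. For Insr the interaction was 0.05 in males, the chow genotype contrast -0.12 and -0.06 with slope and with both terms, and the wild-type diet contrast 0.02 and 0.05 with the block and with sex. Its value in the NASH genotype contrast was -0.04, -0.25, -0.34, -0.03, -0.12, -0.04 and -0.11 with sex, slope, both, offset, females, no negative slopes, and sex with offset. For Irs2, the knockout diet contrast was -0.03, -0.38, -0.51, -0.12, -0.46, -0.13 and -0.06 with sex, slope, both, males, no negative slopes, summed libraries, and sex with offset, and the NASH genotype contrast -0.24 with both. For Ptpn1 the interaction was 0.04, 0.02, 0.38, 0.02, 0.02 and 0.04 with sex, both, males, no negative slopes, summed libraries, and sex with offset, and the wild-type diet value -0.24 in males. Without negative slopes the wild-type diet values of Foxo3, Irs2 and Trib1 were -0.04, -0.09 and -0.14, and Irs1 was -0.07 in the knockout diet contrast.

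Leaving out 1 library spanned 0 in these: Creb3l3 in the chow genotype contrast -0.05 to 0.13, Grb14 in the knockout diet contrast -0.22 to 0.09, Irs2 there -0.28 to 0.28, Ptpn1 interaction -0.19 to 0.1, and Insr -0.18 to 0.11 (the wild-type diet contrast), -0.01 to 0.36 (the chow genotype contrast), -0.03 to 0.06 (the NASH genotype contrast), -0.36 to 0 (the knockout diet contrast) and -0.32 to 0.03 (interaction).

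Depth limits Irs2 most, with 42 to 768 counts per library, while Creb3l3 had 1343 to 11577. Sex and diet are nearly inseparable in wild type, with 1 male on the NASH diet and no female on chow, and fits by sex have few libraries. The slope is a property of the libraries whose origin is not given in the sources used here.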
